A study of Ovis aries with 14 samples.

Results

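HBB, AHSP and CA1 are genes of red blood cells, and their transcripts were followed here in the hypothalamus of fetal sheep after exposure to triclosan, an antibacterial compound used in soaps and toothpastes. The genes were chosen by name: each probe of the Agilent ovine array whose gene name or matched symbol was HBB, AHSP or CA1 was taken, which gave 6 probes of 15008 and 3 of 964 gene symbols. Every fetus was studied in late gestation, at about day 130, and its hypothalamus was taken after 2 days of infusion. In the direct arm the catheterised fetus itself received vehicle (n = 4) or triclosan at 250 µg per day (n = 4) by vein. In the indirect arm the ewe received vehicle (3 deposited arrays, of which 2 were used) or triclosan at 100 µg/kg per day (n = 3). Maternal vehicle replicate 3 was left out because it equalled 0.6 times replicate 1 plus 0.4 times replicate 2 of its group at all 15744 spots, within a relative difference of 1e-04. The labels do not say that the arrays of a group come from separate pregnancies, so p-values measure only the spread between these arrays.

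Red cells carry haemoglobin, made of alpha and beta chains that each hold a haem group. HBB encodes the beta chain, AHSP encodes a chaperone that binds free alpha chains until they pair, and CA1 encodes a carbonic anhydrase, an enzyme that interconverts carbon dioxide and bicarbonate and is abundant in red cells. Young red cells keep such transcripts after the nucleus is lost, so in a tissue taken with its blood these genes serve as markers of that blood. In bulk tissue, fewer red cells and less RNA per red cell cannot be told apart.

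Each gene had a pair of 60-base probes, and the probe with the higher mean over the arrays is called its main probe. The main HBB probe is shown first because most values below rest on it. Its listed accessions include RefSeq transcripts of both HBB and HBBC, another sheep beta globin, so its signal is uncertain between them. The AHSP probes are shown because they read nearly the same stretch: capitals mark the 59 bases that they share, shifted by 1 base. No other probe on the array shared 20 or more bases with any of the 6 probes, on the same or the opposite strand.
HBB, main probe: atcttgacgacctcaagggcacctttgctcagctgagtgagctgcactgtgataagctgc
AHSP, main probe: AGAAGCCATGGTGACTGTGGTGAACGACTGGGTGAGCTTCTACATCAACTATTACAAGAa
AHSP, other probe: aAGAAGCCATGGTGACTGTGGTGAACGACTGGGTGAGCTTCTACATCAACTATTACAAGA

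Values are log2 processed signals minus the 75th percentile of the array's probes, so 0 marks that percentile, and probes of different genes are not ranked by level. Median processed signals ranged from 236 to 307 on the fetal triclosan arrays and from 284 to 380 on the others, between 83.3% and 90.1% of spots on an array stood well above background, and none (0) was saturated. Among the used arrays the number in a group is also the slide number for 1, 2 and 3. Of the fourth arrays, that of fetal vehicle was on slide 3 and that of fetal triclosan was by itself on slide 5. Fetal triclosan replicate 4 was also the only used array scanned on a different day, and it had the lowest median signal (236). Over all 13738 tested probes the median direct difference was −0.09, and it was 0.13 when arrays were scaled on their median instead. That scaling turned 921 higher and 1590 lower direct calls into 2127 higher and 932 lower ones.

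Mean signal of the main HBB probe was higher with triclosan than with vehicle in both arms, but neither arm passed the test by itself. The other HBB probe, described further below, had an indirect difference of −0.43. With fetal vehicle the main HBB probe read 2.37, 2.72, 2.07 and 3.63 on replicates 1 to 4. Under fetal triclosan it read 3.56, 4.42, 3.55 and 4.54. Fetal vehicle replicate 4 stood above the other vehicle arrays and overlapped the exposed range, which otherwise lay higher. In the indirect arm the probe read 1.70 and 3.17 with vehicle and 4.55, 4.77 and 3.38 with triclosan, and these groups did not overlap. At 19.5% of probes with values in both maternal groups every triclosan array lay above every vehicle array.

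**Figure D1:**
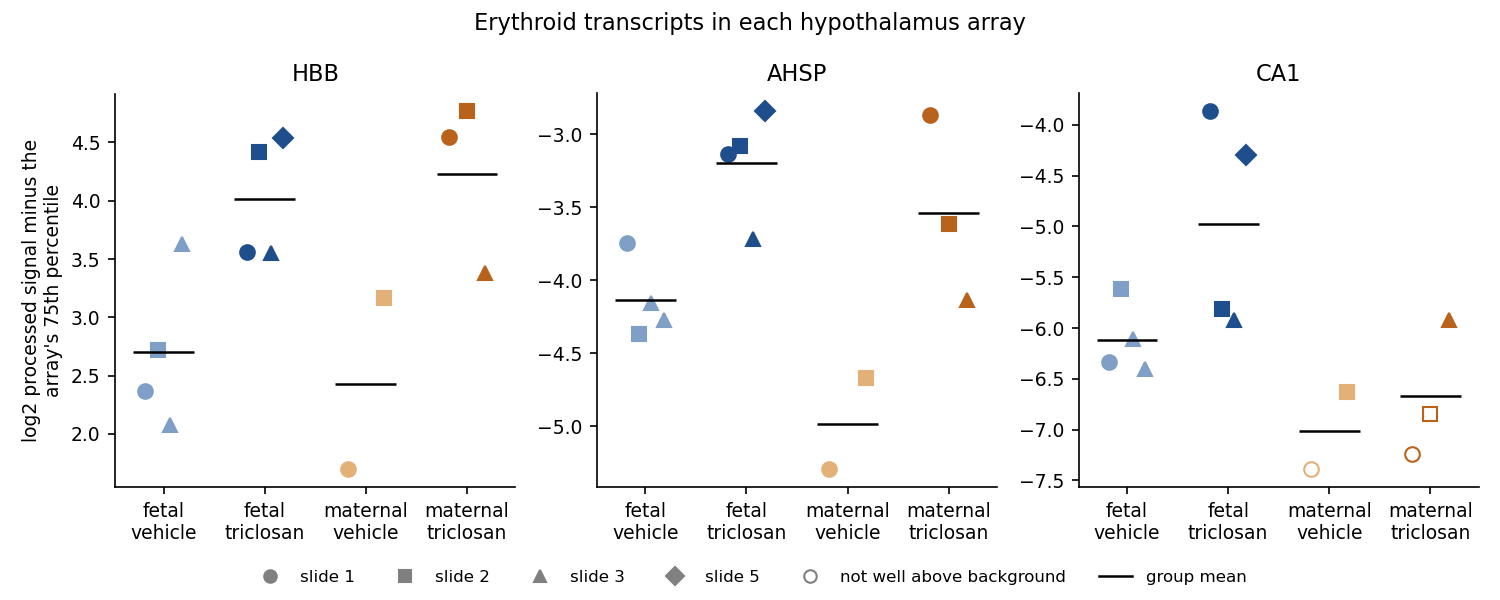
Scaled log2 signal (log2 processed signal minus the array's 75th percentile) of the main HBB, AHSP and CA1 probes, one point per array in the 4 groups, with the slide as the point shape and the group mean as a line; open points were not well above background. HBB and AHSP sit higher with triclosan in both arms, whereas CA1 is highest on fetal triclosan replicates 1 (−3.87) and 4 (−4.30).

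The direct difference for HBB was 1.32 (SE 0.45), a 2.50-fold higher signal, with an adjusted p of 0.0618 in the limma fit, so it did not pass the threshold of 0.05. The indirect difference was 1.80 (SE 0.58), a 3.48-fold higher signal, with an adjusted p of 0.436. On slides 1, 2 and 3 the direct difference of the main probe was 1.19, 1.70 and 0.70. On slides 1 and 2 its indirect difference was 2.85 and 1.60, so its sign was the same in each. The vehicle value of slide 3 is a mean of fetal vehicle replicates 3 and 4, and replicate 4 (3.63) lay above fetal triclosan replicate 3 (3.55). For the other HBB probe the direct difference was 2.48, −0.26 and −0.14 and the indirect difference −0.37 and −2.03, so its sign did not hold. With the slide as a block the direct value of the main probe was 1.09 (adjusted p = 0.122). The direct value passed in 4 of 16 alternatives, among them median scaling (1.54, adjusted p = 0.0364) and a variance trend (adjusted p = 0.0373). Another was all 14 arrays (adjusted p = 0.0438), which count the left-out mixture as a replicate. Quantile scaling (adjusted p = 0.1101), the authors' values (adjusted p = 0.1005) and array weights (adjusted p = 0.1722) were among those that did not pass. Of the 13 fits without 1 array, 1 passed, that without fetal vehicle replicate 4 (1.63, adjusted p = 0.0349).

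The main AHSP probe was higher on every triclosan array than on any vehicle array of the same arm, which did not hold for the other AHSP probe in the direct arm. In mean over the 13 arrays the AHSP probes differed by only 0.016, but by 1.09 on fetal triclosan replicate 2. That exposed array weighed heavily on which probe was called main, so the choice was not independent of the direct comparison. The main AHSP probe had processed signals of 43.6 to 244, well above background on all 13 arrays. It read −3.75, −4.36, −4.16 and −4.27 with fetal vehicle and −3.13, −3.08, −3.72 and −2.84 with fetal triclosan. On the maternal arrays it read −5.30 and −4.67 with vehicle and −2.87, −3.61 and −4.14 with triclosan. Fetal vehicle replicate 1 and fetal triclosan replicate 3 nearly met, and the maternal groups stood further apart. Every triclosan array lay above every vehicle array of its arm at 8.83% of probes in the direct arm and at 2.48% in both arms at once.

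With direct exposure the main AHSP probe rose by 0.94 (SE 0.28), a 1.92-fold higher signal (adjusted p = 0.0380). It was the only called probe of the 5 tested for these genes, and 18.3% of all probes were called in that comparison, 6.70% as higher. The indirect difference was 1.45 (SE 0.36), a 2.73-fold higher signal, with an adjusted p of 0.359. Within slides 1, 2 and 3 the direct difference was 0.62, 1.29 and 0.49, and within slides 1 and 2 the indirect difference was 2.43 and 1.06. With the slide as a block, which leaves fetal triclosan replicate 4 without a partner, the direct value was 0.74 and the call was lost (adjusted p = 0.0768). The call was also lost with array weights (0.88, adjusted p = 0.0861), with the other AHSP probe, with the mean of both probes (0.73, adjusted p = 0.0789), and without any one of fetal vehicle replicates 2, 3 and 4, fetal triclosan replicates 1, 2 and 4, or maternal triclosan replicate 2, where the adjusted p reached up to 0.0892.

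CA1 had a wide spread among the directly exposed fetuses, and its values overlapped between triclosan and vehicle in both arms. The main CA1 probe was dim, with processed signals of 10.2 to 110. It read −6.34, −5.61, −6.11 and −6.40 with fetal vehicle and −3.87, −5.81, −5.92 and −4.30 with fetal triclosan. Fetal triclosan replicates 1 and 4 were far above the rest, while replicates 2 and 3 fell within the vehicle range. With maternal vehicle it read −7.39 and −6.63, and with maternal triclosan −7.24, −6.84 and −5.92. It was well above background on 1 of the 2 maternal vehicle arrays, on 1 of the 3 maternal triclosan arrays and on all fetal-arm arrays.

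For CA1 the direct difference was 1.14 (SE 0.47; adjusted p = 0.114) and the indirect difference was 0.34 (SE 0.61; adjusted p = 0.867). On slides 1, 2 and 3 the direct difference was 2.47, −0.20 and 0.33, so the sign did not hold on slide 2. Without fetal triclosan replicate 3 the direct value passed (1.45, adjusted p = 0.0482). The indirect value turned to −0.43 with normexp background correction, to −0.04 without maternal vehicle replicate 1 and to −0.03 without maternal triclosan replicate 3.

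The probes of a gene did not always give the same values. Both AHSP probes differed by −0.40 to 0.09 on 12 arrays, whereas on fetal triclosan replicate 2 the main probe read −3.08 and the other −4.17, a difference of 1.09. Their values correlated with r = 0.88 across the 13 arrays, a description without a test. On fetal triclosan arrays the other AHSP probe read −3.15, −4.17, −3.75 and −2.94, against −3.76, −4.31, −4.02 and −3.97 with fetal vehicle, so these groups overlapped. Its direct difference was 0.51 (SE 0.29; adjusted p = 0.242), and its indirect difference of 1.52 (SE 0.37; adjusted p = 0.359) was close to that of the main probe. Neither AHSP probe carried an outlier mark on any array. Both were well above background on all 13 arrays, though at low processed signals (43.6 to 244 for the main probe).

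The HBB probes differed far more. The other HBB probe, designed on an expressed sequence tag, read −1.11, 2.36, 0.31 and 3.19 with fetal vehicle and 1.37, 2.10, 1.61 and 4.56 with fetal triclosan. With maternal vehicle it read 1.13 and 2.53, and with maternal triclosan 0.76, 0.50 and 2.93. These ranges overlapped in both arms, and on maternal triclosan replicates 1 and 2, where the main probe was highest, the other probe was among its lowest values. Main minus other ran from −0.02 to 4.27 (mean 1.71 ± 1.45, SD, n = 13), and the correlation across arrays was 0.36. The other probe's direct difference was 1.22 (SE 1.00; adjusted p = 0.428) and its indirect difference −0.43 (SE 1.29; adjusted p = 0.928).

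The other CA1 probe was well above background on 1 of 13 arrays, fetal triclosan replicate 1, the array on which the main CA1 probe was also highest. It was the 1 probe of the 6 that did not pass the filter on dim probes, and it was not tested.

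**Figure D2:**
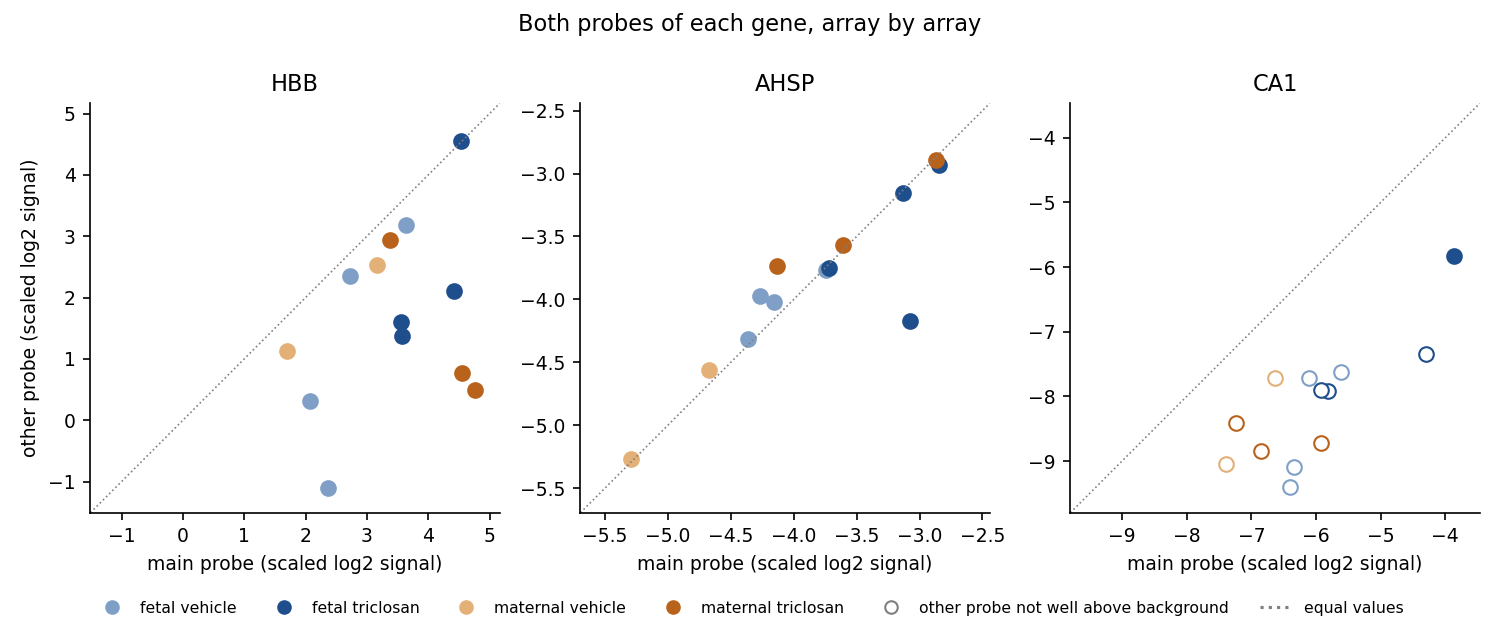
Main probe (horizontal axis) against other probe (vertical axis) of HBB, AHSP and CA1 in scaled log2 signal, one point per array, coloured by group, with a dotted line of equal values; open points mark arrays on which the other probe was not well above background. AHSP points lie within 0.40 of the line apart from 1 fetal triclosan array that differs by 1.09, HBB points scatter up to 4.27 below it, and only 1 array has a CA1 signal above background on the other probe.

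A further probe outside the rule is described in the files as a contig like fetal beta globin, and it was picked after its values were seen. It read −2.19, −3.19, −2.57 and −1.58 with fetal vehicle and −1.39, −1.32, −1.02 and −2.68 with fetal triclosan. On the maternal arrays it read −3.23 and −2.35 with vehicle and 0.07, 0.12 and −2.06 with triclosan. Fetal triclosan replicate 4, which was highest for HBB and AHSP within its group, was lowest there for this probe. Its direct difference was 0.78 (SE 0.54; adjusted p = 0.345) and its indirect difference 2.17 (SE 0.70; adjusted p = 0.436).

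In the indirect arm the limma fit called 0 of the 5 tested probes and 0% of all probes, with 1322 of 13738 probes at an unadjusted p under 0.05. With array weights 378 probes were called, among them the main AHSP probe (1.74, adjusted p = 0.0277) and the other AHSP probe (1.73, adjusted p = 0.0238), as was the fetal beta globin contig (2.53, adjusted p = 0.0375).

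Averaged over both routes, each against its own vehicle, the main HBB probe and both AHSP probes rose, and CA1 and the other HBB probe did not pass. The main HBB probe rose by 1.56 (SE 0.36; adjusted p = 0.0258), a 2.95-fold higher signal. The main AHSP probe rose by 1.19 (SE 0.23; adjusted p = 0.0147), a 2.29-fold higher signal, and the other AHSP probe by 1.02 (SE 0.24; adjusted p = 0.0249). The CA1 value was 0.74 (SE 0.38; adjusted p = 0.252), the other HBB probe had 0.40 (SE 0.81; adjusted p = 0.806), and the fetal beta globin contig had 1.47 (SE 0.44; adjusted p = 0.0577). The contig passed over both routes under other settings, among them normexp correction (1.22, adjusted p = 0.0455), median scaling (1.60, adjusted p = 0.0428), the authors' values (1.54, adjusted p = 0.0346), the slide block (1.67, adjusted p = 0.0397) and array weights (1.72, adjusted p = 0.00996). It also passed with all 14 arrays (1.48, adjusted p = 0.0237), which count the left-out mixture as a replicate. Quantile scaling (1.60, adjusted p = 0.0517), no filter on dim probes (adjusted p = 0.0671) and outlier spots kept (adjusted p = 0.0573) did not pass. Thus 3 of the 5 tested probes, 2 of them reading 1 stretch of AHSP, were called higher, where 9.38% of all probes were called, 3.13% as higher and 6.25% as lower.

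The calls over both routes rested on few maternal arrays. Without maternal vehicle replicate 1 the HBB value was 1.19 (adjusted p = 0.143) and the AHSP value 1.04 (adjusted p = 0.0908), and without maternal vehicle replicate 2 they were 1.93 (adjusted p = 0.0563) and 1.35 (adjusted p = 0.0553). HBB also lost the call without fetal vehicle replicate 1 or 3 or maternal triclosan replicate 1 or 2, with the mean of both probes (0.98, adjusted p = 0.254), and AHSP with normexp correction (0.57, adjusted p = 0.0638). With the slide as a block the values were 1.50 (adjusted p = 0.0227) for the main HBB probe and 1.18 (adjusted p = 0.00996) for the main AHSP probe. The other HBB probe then had −0.05 (adjusted p = 0.965).

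**Figure D3:**
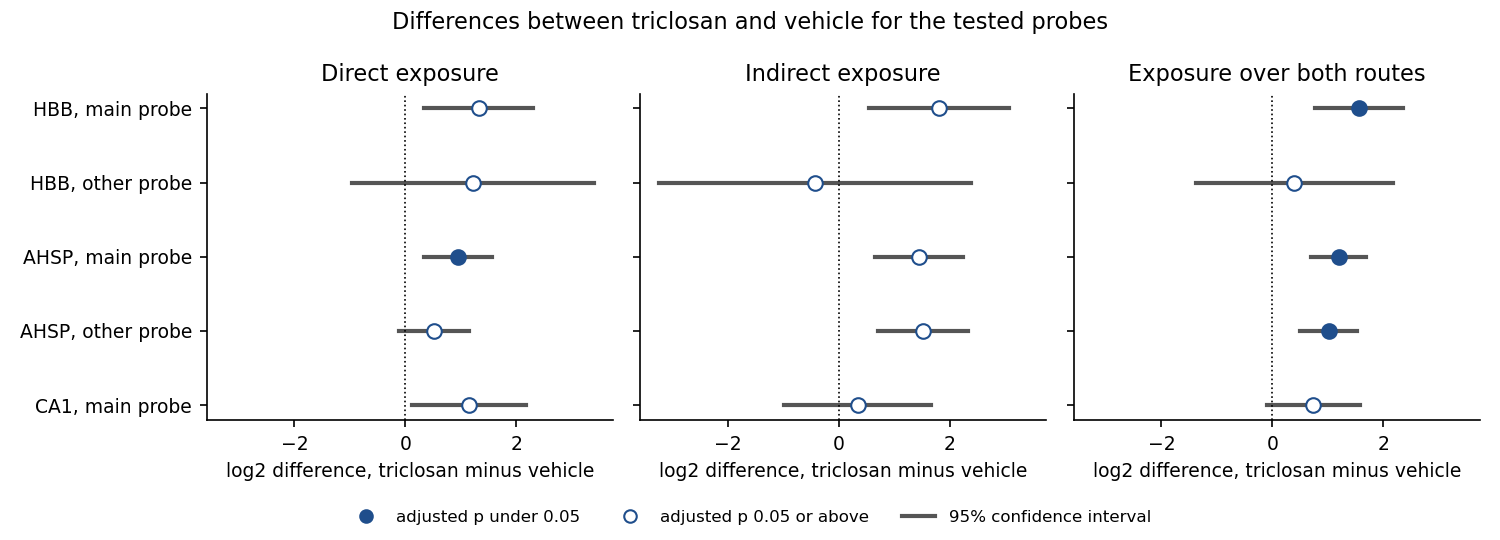
Log2 differences, triclosan minus vehicle, for the 5 tested probes in the direct arm, the indirect arm and their mean, with 95% confidence intervals of the limma fit; filled points have an adjusted p under 0.05. In the mean over both routes the main HBB probe (1.56) and both AHSP probes (1.19 and 1.02) are filled, and the other HBB probe has the widest interval in each panel.

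The difference between the routes was tested directly. Indirect minus direct exposure gave 0.48 (95% confidence interval −1.12 to 2.08; adjusted p = 0.761) for HBB, 0.50 (−0.50 to 1.51; adjusted p = 0.590) for AHSP and −0.80 (−2.48 to 0.88; adjusted p = 0.611) for CA1. No member passed, and neither did any of the 13738 probes (0%), with 2032 at an unadjusted p under 0.05. These intervals are wide, so the fit does not show that the routes act alike.

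Between the vehicle groups, maternal minus fetal vehicle was −0.27 (SE 0.55) for HBB, −0.85 (SE 0.34) for AHSP and −0.89 (SE 0.57) for CA1, each with an adjusted p of 1.00 after rounding. Of all probes 0% were called, with 458 at an unadjusted p under 0.05.

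HBB and AHSP were correlated over the arrays of all 4 groups pooled. Over the 13 arrays the main probes of HBB and AHSP correlated with r = 0.76 (adjusted permutation p = 0.0081) and rho = 0.76 (adjusted permutation p = 0.0106), 3 pairs being tested. The permutation ignores groups and slides, so the triclosan difference that both genes share enters it. Without the 2 arrays farthest from the HBB median, maternal vehicle replicate 1 and fetal vehicle replicate 3, r was 0.66. With the group means removed r was 0.50, a value without a test, and with slide means removed it was 0.80 over 12 arrays. Without maternal vehicle replicate 1 alone the pair fell to r = 0.66 (adjusted permutation p = 0.0639), and with normexp correction to 0.59 (adjusted permutation p = 0.0882).

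For HBB and CA1 r was 0.21 (adjusted permutation p = 0.492) and rho was 0.08 (adjusted permutation p = 0.792). Without the 2 arrays farthest from the HBB median r was −0.04, with group means removed −0.12, and with slide means removed 0.06. For AHSP and CA1 r was 0.49 (adjusted permutation p = 0.133) and rho 0.38 (adjusted permutation p = 0.303), and r was 0.27 without the 2 arrays farthest from the AHSP median. It was −0.01 with group means removed and 0.38 with slide means removed. Without maternal triclosan replicate 1, where AHSP was high and CA1 low, it reached 0.74 (adjusted permutation p = 0.0115).

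**Figure D4:**
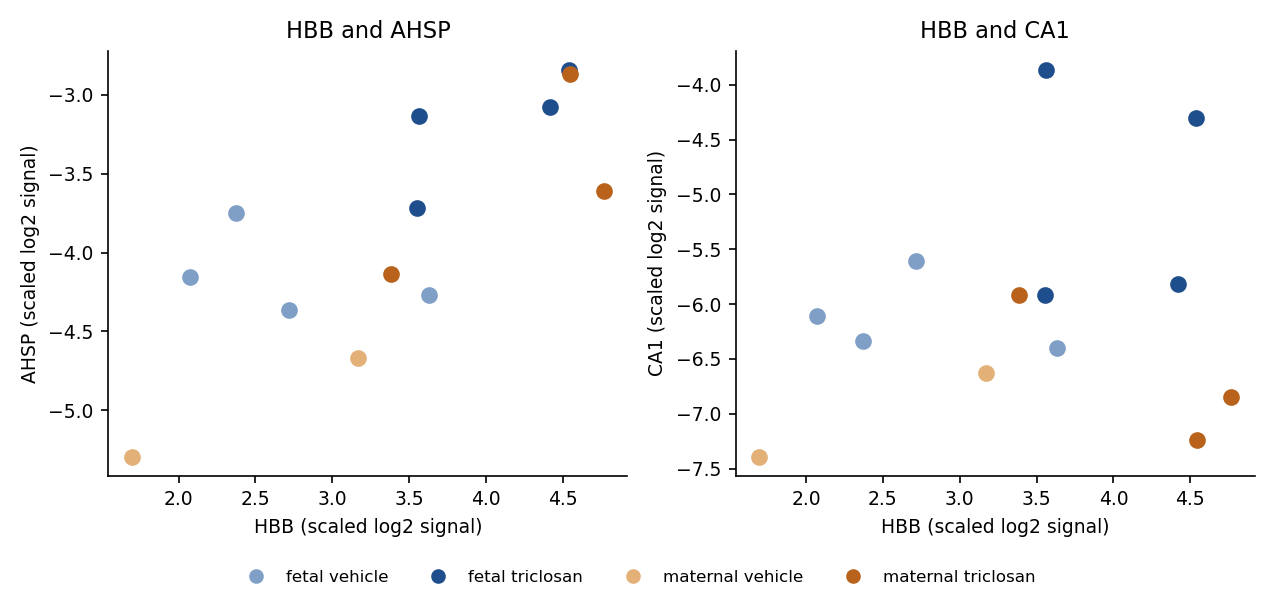
Scaled log2 signal of the main HBB probe against that of AHSP (left) and CA1 (right), one point per array, coloured by group. HBB and AHSP values are correlated over the 13 arrays (r = 0.76), whereas the CA1 values show no common trend with HBB (r = 0.21), the exposed maternal arrays 1 and 2 being high for HBB and low for CA1.

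The genes closest to each member over the 13 arrays were ranked by Pearson's r among 883 other named genes, as a description with no test; the arrays share their groups and slides. For HBB they included PSME2 (r = 0.83), a proteasome activator subunit, PCNA (0.82), the sliding clamp of DNA replication, TNNC2 (0.80), a troponin, and CIB1 (0.78), a calcium-binding protein. For AHSP they included RACK1 (0.86), a ribosome-bound scaffold, ATP5MC2 (0.85), a subunit of ATP synthase, and RPL13A (0.84), a ribosomal protein. For CA1 they were PSMB8 (0.89), a subunit of the immunoproteasome, MT3 (0.88), a brain metallothionein, MCP-3 (0.87), a chemokine name as given in the files, SC5 (0.83), also as given in the files, and ITM2B (0.83), a membrane protein. Among all 13592 probes ranked by likeness to HBB, the main AHSP probe was number 112, the fetal beta globin contig number 187, the other HBB probe number 2517 and the main CA1 probe number 3862.

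Few other markers of red cells were measured under a gene symbol, so the label rests on these genes. Of 15008 probes 13352 had no gene name, so other listed genes may be on the array unnamed. Of 36 listed erythroid genes 4 were measured under a symbol, the fourth being EPOR, the erythropoietin receptor. EPOR had a direct difference of −0.33 (SE 0.24; adjusted p = 0.370) and an indirect difference of −0.07 (SE 0.30; adjusted p = 0.956). In the direct arm 1 of the 4 genes rose, where 6.70% of all probes were called higher, and the list median was 1.04, beside −0.10 over 901 named genes. Over both routes 2 of 4 rose, where 3.13% of all probes were called higher, with a median of 0.97, beside −0.02 over all named genes; since 3 of the 4 are the genes described above, this is no separate evidence. The summed level of the 4 genes, relative to the array's 75th percentile on a linear scale, ranged from 4.38 to 12.5 in fetal vehicle arrays and from 11.9 to 23.5 in fetal triclosan arrays. In the maternal groups it ranged from 3.38 to 9.11 under vehicle and from 10.6 to 27.4 under triclosan. This sum is almost wholly the main HBB probe, whose mean log2 value was 3.42, beside −3.84 for AHSP, −6.03 for CA1 and −3.64 for EPOR. It therefore repeats HBB and does not show a joint rise of the 4 genes. Without HBB, AHSP and CA1, EPOR alone gave 0.06 to 0.11 in fetal vehicle and 0.05 to 0.09 in fetal triclosan arrays.

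Of 9 genes of haem synthesis 2 were measured. With direct exposure UROD, uroporphyrinogen decarboxylase, rose by 0.45 (SE 0.13, adjusted p = 0.0346), where 6.70% of all probes were called higher. SLC25A38, a mitochondrial glycine carrier, fell by 0.58 on the log2 scale (SE 0.14, adjusted p = 0.0163), where 11.6% of all probes were called lower. Both calls were lost with normexp correction, quantile scaling, the authors' values and only the fetal groups, and also without fetal vehicle replicate 3 (SLC25A38 also with median scaling, and UROD also with array weights and without fetal vehicle replicate 1 or 4 or fetal triclosan replicate 2 or 3). With indirect exposure UROD had 0.11 and SLC25A38 −0.17, and neither passed. Of 14 genes of iron and haem handling 4 were measured and 0 passed in either arm. Of all probes 18.3% were called with direct and 0% with indirect exposure. FTH1, a ferritin chain, had a direct value of 0.23 (SE 0.12), TF, transferrin, 0.01 (SE 0.42), LTF, lactotransferrin, 0.55 (SE 0.44), and CP, ceruloplasmin, 0.45 (SE 0.40). CA11, the 1 measured gene of 14 other carbonic anhydrases, had a direct value of 0.00 (SE 0.15) and an indirect value of −0.29 (SE 0.19).

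Genes of leukocytes, platelets, plasma proteins and vessels were set beside these values. The leukocyte list covers blood leukocytes and tissue macrophages, so it does not read blood alone. Among 11 measured leukocyte genes 0 rose and 1 fell with direct exposure, where 11.6% of all probes were called lower, with a list median of −0.07 beside −0.10 over all named genes; the gene that fell was ITGAM, an integrin of myeloid cells (−0.95, SE 0.28; adjusted p = 0.0377), and that call was lost under each other scaling of the arrays, among them quantile scaling (−0.71, adjusted p = 0.130). Their summed level ranged from 1.89 to 2.72 in fetal vehicle arrays against 2.18 to 2.53 in fetal triclosan arrays, and from 2.60 to 2.64 in maternal vehicle arrays against 2.33 to 2.50 in maternal triclosan arrays, so that no triclosan array exceeded the highest vehicle array of its arm. With indirect exposure 0 leukocyte genes passed, where 0% of all probes were called, and values ran from −0.97 (ITGAM) to 0.92 (LCK). The indirect list median was 0.04, beside 0.03 over all named genes. SELP, the 1 measured platelet gene, had a direct value of −0.57 (SE 0.35) and an indirect value of 0.35 (SE 0.45). Of 6 measured plasma protein genes 0 passed in either arm, beside 18.3% of all probes called with direct and 0% with indirect exposure. ALB, albumin, had a direct value of 0.68 (SE 0.35, adjusted p = 0.206) and an indirect value of 0.67 (SE 0.45, adjusted p = 0.628). The plasma protein list holds genes of liver products carried in plasma, so their transcripts do not measure the blood in the tissue.

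Among 6 measured endothelial genes 3 fell and 0 rose with direct exposure, beside 11.6% of all probes called lower: KDR (−1.57, SE 0.17), CD93 (−2.09, SE 0.39) and FLT1 (−1.18, SE 0.25), receptors of vessel walls. KDR and CD93 kept the call in every alternative and without any one array, whereas FLT1 was −0.04 (adjusted p = 0.930) with normexp correction and −0.38 (adjusted p = 0.0763) with the authors' values. The summed endothelial level ranged from 0.98 to 1.36 in fetal vehicle arrays against 0.73 to 0.89 in fetal triclosan arrays, and from 1.14 to 1.24 in maternal vehicle arrays against 1.03 to 1.16 in maternal triclosan arrays. Thus the endothelial sum was lower on every fetal triclosan array than on any fetal vehicle array, the opposite of the main AHSP probe. The other AHSP probe overlapped in that arm. How many of all probes were lower in this way was not counted. PECAM1, which had the highest signal in the sum, was not called (−0.26, SE 0.19, adjusted p = 0.368). Of 10 measured hypothalamic neuron genes, markers of the labelled tissue, 0 passed in either arm. With direct exposure 18.3% of all probes were called, 6.70% as higher, and with indirect exposure 0%. The list medians were 0.98 direct and 1.06 indirect, beside −0.10 and 0.03 over all named genes. Over both routes the median was 1.15, beside −0.02 over all named genes, and 1 of 10 passed, where 3.13% of all probes were called higher. That gene was GHRH, growth hormone-releasing hormone, which rose by 2.68 (SE 0.75, adjusted p = 0.0453). Its call was lost with no filter on dim probes, with the replicate block, and without any one array other than fetal vehicle replicate 4 or fetal triclosan replicate 4; without maternal vehicle replicate 1 it was 2.10 (adjusted p = 0.222). Their summed level ranged from 9.32 to 19.8 in fetal vehicle arrays against 9.51 to 57.1 in fetal triclosan arrays, and from 11.4 to 16.0 in maternal vehicle arrays against 24.9 to 35.5 in maternal triclosan arrays. These ranges overlapped in the fetal groups and not in the maternal ones, where 19.5% of single probes were higher on every triclosan array. SST had the highest mean signal in this sum (log2 3.76). The part of this sum in the erythroid values was not tested, nor was that of the endothelial genes or of the lower median signal of the fetal triclosan arrays.

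**Figure D5:**
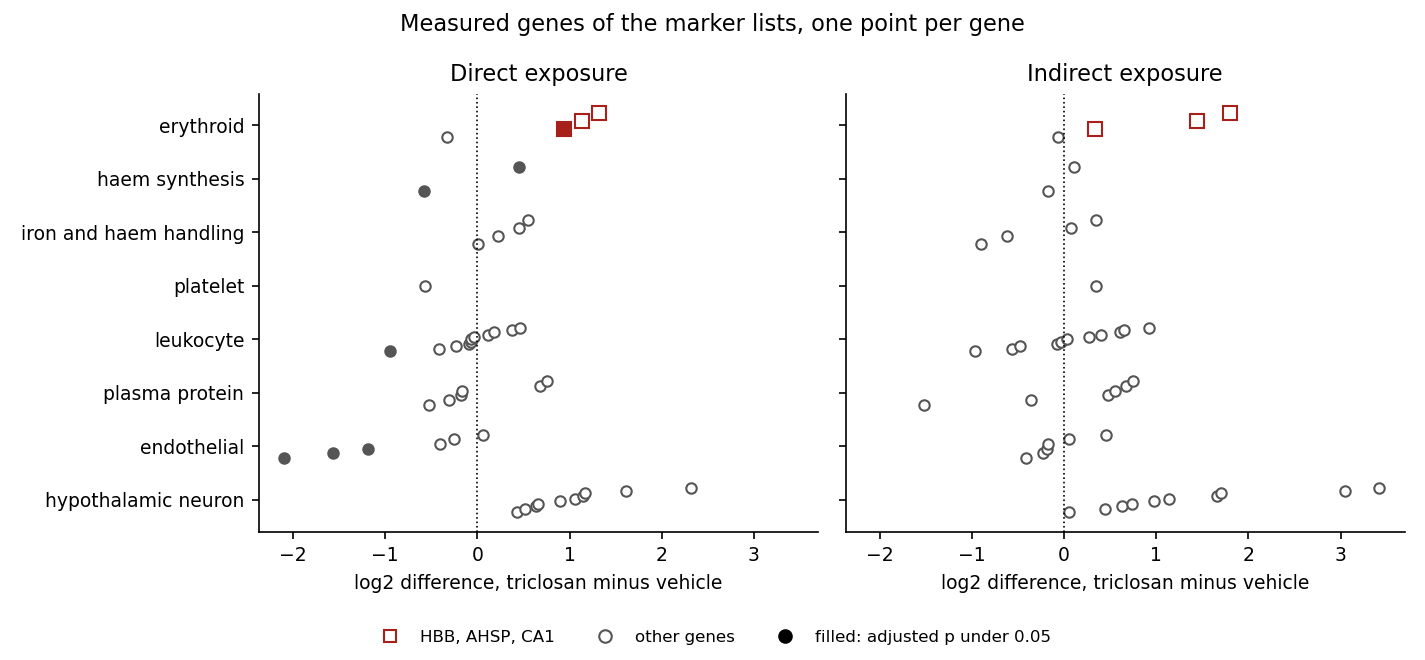
Log2 differences, triclosan minus vehicle, of the measured genes in 8 marker lists, one point per gene, in the direct and the indirect arm; squares are HBB, AHSP and CA1, and filled points have an adjusted p under 0.05. The 3 squares lie right of 0 in both arms (the indirect CA1 value of 0.34 turns to −0.43 with normexp correction), leukocyte and plasma protein genes lie on both sides of 0, and KDR and CD93 are filled at −1.57 and −2.09 in the direct arm, as is FLT1, which lost its call with normexp correction.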

How the data were processed

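Per the file headers, the scanner files the authors deposited hold spot intensity values from Agilent Feature Extraction 10.1.1.1, single-colour (Cy3), with a background-subtracted processed signal that was not normalised between arrays. The authors' deposited value table appears to be on a log2 scale; how it was scaled is not given in the sources, and it served as an alternative. Here control spots and outlier spots were left out, log2 processed signal minus each array's 75th percentile was taken, and a probe was kept when well above background on at least 3 of 13 arrays, which left 13738 probes with 250 missing values. A model of 4 group means was fitted by limma 3.58.1 in R 4.3.3, with 9 residual and 2.39 prior degrees of freedom; its two-sided test was adjusted by Benjamini-Hochberg over all probes at 0.05, and it was tested on simulated data. Correlations used 100000 permutations (scipy 1.17.1, Python 3.11.15). The submitters' processing notes name limma too, with no role stated.

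Names came from the files and from a RefSeq gene table (assembly ARS-UI_Ramb_v3.0): 1556 of 15008 probes had a symbol. The files name no build, so no coordinates are given. All probes of HBB, AHSP and CA1 were described; other genes of the erythroid, haem, iron and carbonic anhydrase lists were named where they passed or, up to 4 a list, by highest mean signal. Genes named from the other lists were picked after their values were seen. Likeness took the 5 named genes of highest r, some of which are not reported here. The members and lists were chosen with earlier results of these data known. The alternatives were normexp correction (offset 50), quantile and median scaling, the authors' values, other filters, a variance trend, array weights, slide or replicate number as a block, fewer or all 14 arrays, and each array left out. The number of arrays limits the precision.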

Additional observations from a re-analysis of the deposited data

How the results depend on the processing

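In the direct arm HBB kept its direction in all 16 alternatives (1.09 to 1.54) and in all 13 fits without 1 array (1.11 to 1.63); it passed with median scaling (1.54), and at 1.32 with a variance trend, with the replicate number as a block (adjusted p = 0.0111) and with all 14 arrays. AHSP ran from 0.51 to 1.18, and from 0.82 to 1.12 without 1 array; it lost the call with array weights (0.88), the slide block (0.74), the other probe (0.51) and the mean of probes (0.73). CA1 ran from 0.63 to 1.36, and from 0.77 to 1.45 without 1 array. Direct calls numbered 1294 with only the fetal groups and 1234 to 2947 without 1 array. Same-numbered arrays share a slide for numbers 1 to 3, but they did not all deviate together: correlations were 0.13, 0.12 and 0.27 for fetal pairs 1 to 3, −0.17 for fetal pair 4, which lies on different slides, and −0.09 and −0.08 for the maternal pairs. The replicate block gave 2819 direct calls.

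In the indirect arm 378 probes were called with array weights, 11 with all 14 arrays and 0 to 2 without 1 array. HBB ran from 1.06 to 2.54 without 1 array and was −0.43 for the other probe; AHSP ran from 1.11 to 1.76, was 0.42 with normexp correction and passed with array weights (1.74); CA1 ran from −0.041 to 0.72 and was −0.43 with normexp correction and −0.27 for the other probe. Over both routes the calls numbered 2964 with array weights, 2602 and 2130 with the slide as a fixed and a random block, 2365 with all 14 arrays and 0 to 2191 without 1 array. HBB ran from 1.19 to 1.93 without 1 array, and was 0.40 for the other probe and 0.98 for the mean of probes; AHSP ran from 1.03 to 1.35, and was 0.57 with normexp correction; CA1 ran from 0.55 to 0.93, and was 0.10 after normexp correction and 0.43 on the deposited value table.

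For the difference between routes, calls numbered 1 with quantile scaling, 7 with all 14 arrays and 0 to 9 without 1 array; HBB turned to −1.65 (other probe) and −0.59 (mean of probes) and ran from −0.26 to 1.22 without 1 array, AHSP turned to −0.31 with normexp correction. Between the vehicle groups, where calls numbered 0 to 2 without 1 array, HBB turned to 0.64 (other probe) and 0.19 (mean of probes) and ran from −1.0 to 0.47, AHSP turned to 0.015 with normexp correction, and CA1 to 0.43 with normexp correction and 0.070 for the other probe. The correlation of HBB with AHSP ran from 0.66 to 0.82 without 1 array and was 0.59 with normexp correction; that of HBB with CA1 ran from 0.00 to 0.38 and turned to −0.062 with normexp correction; that of AHSP with CA1 ran from 0.34 to 0.74. The causes were not tested. The dim CA1 signal and the 2 usable maternal vehicle arrays limit what these values can show.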
